A study of Mus musculus with 6 samples.

Results

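The genes described here make cholesterol, sense it and move it out of the cell. The set was fixed by name: 19 enzymes of the mevalonate and sterol pathway, 4 regulators of its transcription factor SREBP2 (that factor included), the sterol carrier Stard4, and 4 genes of LXR-driven export. Of these 28 genes, 26 had a probe set that the array annotation assigned to that gene alone, out of 19938 such genes on the array. Acat2, the cytosolic thiolase of the first step, and Nr1h2, which encodes LXR beta, had none, so their expression was not analysed here. A gene with several probe sets was read from the one with the highest mean over the 6 arrays.

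The cells were pre-B cells of 129SvEv x C57BL/6J mice aged 5 weeks, transformed with BCR-ABL1, a fusion kinase that drives a form of acute lymphoblastic leukaemia. All 6 samples carried floxed Sox4 alleles (Sox4fl/fl), and the study's design places RNA collection 24 h after 4OHT without setting any sample apart. The 3 control samples had been transduced with ERT2 alone, the ligand-binding domain that responds to 4OHT. The 3 other samples had been transduced with Cre-ERT2, a recombinase that deletes floxed DNA once 4OHT binds it. Every Cre-ERT2 sample had floxed Sox4 and no sample is labelled as untreated, so effects of Sox4 deletion, of the recombinase itself and of its response to 4OHT cannot be told apart. The labels name no separate cultures or animals behind the replicates, so the p-values measure how far these particular samples spread, and that spread may be technical.

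Array medians lay between 273 and 279 intensity units, and precision is limited by having 3 arrays a group. Sox4 read 1459, 1372 and 1237 in the ERT2 samples and 599, 541 and 499 in the Cre-ERT2 samples, and so fell by 1.31 on the log2 scale (limma adjusted p = 0.000434). The position of its probes relative to the floxed part was not used here. The B-lineage markers were high in every sample: Igll1, a surrogate light chain gene, had a mean of 18846 in ERT2 and 19026 in Cre-ERT2 samples, and 0 of 8 measured B-lineage markers passed the test (Pax5 alone had an unadjusted p under 0.05). Their summed level was 79482 to 80245 in ERT2 and 76741 to 78296 in Cre-ERT2 samples. The summed level of 7 macrophage and other myeloid markers was 1632 to 1739 in ERT2 and 2187 to 2372 in Cre-ERT2 samples. Most of the rise in this sum was Lyz2, with means of 351 in ERT2 and 932 in Cre-ERT2 samples (log2 difference 1.40). Fcgr1 also rose, by 0.64, and Itgam fell by 0.49. The macrophage receptor genes Csf1r and Adgre1 had means of 146 and 85.2 in ERT2 and 145 and 81.7 in Cre-ERT2 samples, and Cd68 had 608 and 595. Of 5 T-cell, 2 NK-cell, 1 erythroid and 4 stromal markers 0 were called, with Cd3g alone at an unadjusted p under 0.05, and their summed levels were 820 to 869, 110 to 123, 154 to 168 and 1097 to 1300 in ERT2 and 794 to 857, 110 to 118, 171 to 183 and 1187 to 1314 in Cre-ERT2 samples. Array values do not reach 0, and the part of other cells in the results was not tested. In bulk RNA, fewer cells of a type and less RNA per cell cannot be told apart.

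Cholesterol is built from acetyl-CoA through mevalonate, the isoprenoid diphosphates, squalene and lanosterol. When sterols are scarce in the endoplasmic reticulum, Scap escorts SREBP2 to the Golgi, where proteases release its active part, which then switches on most enzyme genes of the pathway together with Insig1. When sterols are plentiful, Insig proteins hold Scap back, and oxysterols activate the LXR receptors, which switch on the exporters Abca1 and Abcg1. Lymphocytes that divide need sterol for new membrane, and the isoprenoid branch supplies the lipid anchors of small GTPases.

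The promoters of the synthesis genes shared a short element that the choice of genes did not use. RefSeq windows (GRCm38.p6) of 250 bases before and 50 after the annotated start were held for 23 of the 28 genes. These include Acat2 and Nr1h2, whose expression was not measured, so the 3 export genes with a window are Nr1h2, Nr1h3 and Abca1, whereas the 3 with expression values are Nr1h3, Abca1 and Abcg1. The NF-Y box CCAAT, searched on both strands, lay in the windows of 15 of 16 synthesis genes (93.8%, all but Acat2), 3 of 4 control genes and 0 of 3 export genes, and in those of 41.1% of all genes with a window (37.4% of 32851 windows). The sterol regulatory element core, searched as TCACNCCAC on both strands, lay in the window of 1 of 16 synthesis genes, Hmgcs1, and in those of 1.44% of all genes. Few genes hold these exact letters, and looser forms were not searched. The other members, Cyp51 among them, are thus not shown to lack a sterol element. The E-box CACGTG, a palindrome, lay in the windows of 3 of 16 synthesis genes, 2 of 4 control genes (Scap and Insig1) and 1 of 3 export genes (Abca1), and in those of 8.09% of all genes. A direct repeat of AGGTCA with 4 bases between, the LXR type of element, was searched as exact letters on both strands. It was in 0 of the members' windows and in those of 0.0148% of all genes. So few genes hold this exact form that 0 among the members was nearly fixed beforehand. The 0 thus does not show that LXR elements are absent. These matches describe the letters in the windows, and binding was not measured.

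The 150 bases before the start follow for 3 genes that were called higher and have a window (Idi1, Cyp51 and Msmo1), for Hmgcs1, which holds the sterol regulatory element core, and for Insig1, the feedback gene. They lie at chr13:119690201-119690350 (plus strand) for Hmgcs1, chr13:8885456-8885605 (plus strand) for Idi1, chr5:4104698-4104847 (minus strand) for Cyp51, chr8:64733579-64733728 (minus strand) for Msmo1 and chr5:28071262-28071411 (plus strand) for Insig1. All 5 stretches lie upstream of the start and are written 5′ to 3′ along the gene's strand. Capitals mark matches to the exact letters searched, and looser forms are left unmarked.
Hmgcs1: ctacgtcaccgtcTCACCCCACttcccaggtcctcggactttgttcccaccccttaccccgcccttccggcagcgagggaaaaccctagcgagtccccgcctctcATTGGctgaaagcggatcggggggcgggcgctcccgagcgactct
Idi1: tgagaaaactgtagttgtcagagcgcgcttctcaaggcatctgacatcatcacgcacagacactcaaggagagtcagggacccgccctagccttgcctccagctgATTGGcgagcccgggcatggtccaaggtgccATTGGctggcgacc
Cyp51: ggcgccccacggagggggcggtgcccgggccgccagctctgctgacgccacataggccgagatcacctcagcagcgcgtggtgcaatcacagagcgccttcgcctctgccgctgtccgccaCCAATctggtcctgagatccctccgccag
Msmo1: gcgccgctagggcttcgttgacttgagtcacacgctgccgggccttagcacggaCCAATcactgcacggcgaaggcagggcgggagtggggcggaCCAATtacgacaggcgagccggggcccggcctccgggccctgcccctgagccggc
Insig1: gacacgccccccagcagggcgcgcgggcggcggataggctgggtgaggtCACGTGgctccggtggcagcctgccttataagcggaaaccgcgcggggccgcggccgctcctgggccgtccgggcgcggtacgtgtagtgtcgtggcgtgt
In Hmgcs1 the sterol element began 137 bases and the NF-Y box of the printed stretch (ATTGG on this strand) 45 bases before the start. NF-Y boxes began 45 and 14 bases before the start in Idi1, 29 bases before it in Cyp51, and 96 and 55 bases before it in Msmo1, and the E-box of Insig1 began 101 bases before it.

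**Figure D1:**
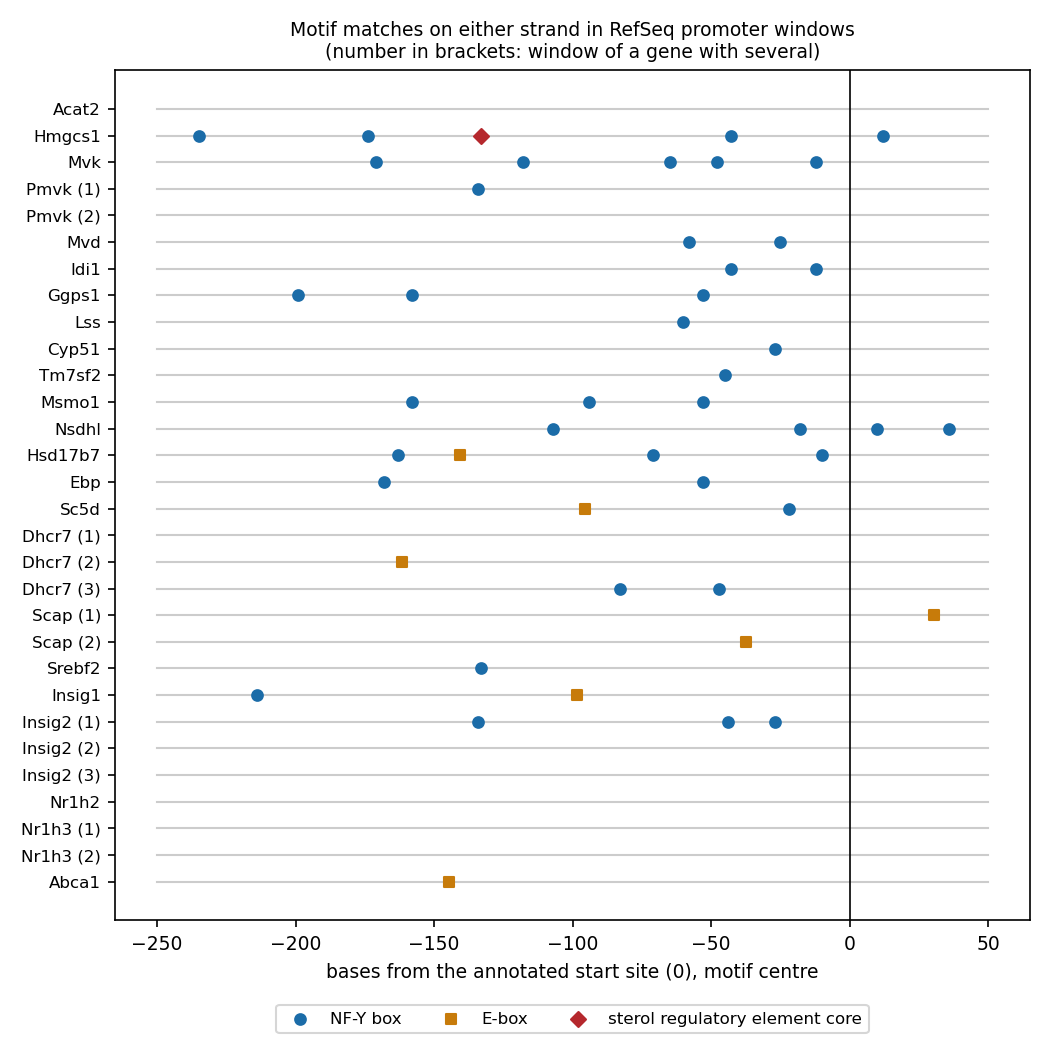
Each line is the promoter window of a member, from 250 bases before to 50 bases after the annotated start (0 on the x axis, in bases), and each symbol is the centre of a motif match on either strand. NF-Y boxes appear in 15 of 16 synthesis genes (all but Acat2) and in none of the windows of Nr1h2, Nr1h3 and Abca1.

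Of the sterol synthesis enzymes, 4 of 18 rose by small amounts in the Cre-ERT2 cells (Idi1, Sqle, Cyp51 and Msmo1), and 0 of the 3 measured export genes were called. At a limma adjusted p under 0.05, these 4 were the only members of 26 that rose (15.4%), and 0 fell. Over all 19938 genes 4.38% rose and 3.72% fell. The brighter probe sets held 24 of the 26 members. Fitted alone, they gave 7 members higher and 0 lower, beside 10.3% and 7.07% of their 10479 genes. In the fit of all probe sets, the members counted 11 higher and 0 lower at an unadjusted p under 0.05, against 12.2% and 7.93% of all genes. In 15 of 26 members every Cre-ERT2 array read above every ERT2 array, against 17.5% of all genes, and in 1 member (Tm7sf2) every one read below, against 10.8%. The median log2 difference was 0.17 for the 18 synthesis enzymes, 0.13 for the 5 control and carrier genes and 0.03 for the 3 LXR and export genes, beside 0.02 for all genes. The members were picked knowing earlier results of these data, so these counts describe them and carry no list test. The differences are on the scale of log2(intensity + 1), and with 3 samples a group a two-sided exact permutation test cannot go below p = 0.1, the value it gave for each of the 16 members whose groups did not overlap.

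The number of risen members depended on single arrays and on the fit. With all arrays it was 4. Dropping control array 1 gave 2 and dropping control array 2 gave 6. Dropping Cre-ERT2 array 1, 2 or 3 gave 2, 2 and 1. It was 7 to 9 with an intensity trend, with the brighter probe sets alone, after a further quantile normalization or cyclic loess, or with estimated array weights. The share of all 19938 genes that rose moved too, from 2.32% without Cre-ERT2 replicate 2 to 8.01% with array weights. With the brighter probe sets alone the share was 10.3% of the 10479 genes left. ERT2 replicate 3 was the lowest control in 20 of 26 members. Without it the median of the synthesis enzymes was 0.10, and 4 members still rose.

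**Figure D2:**
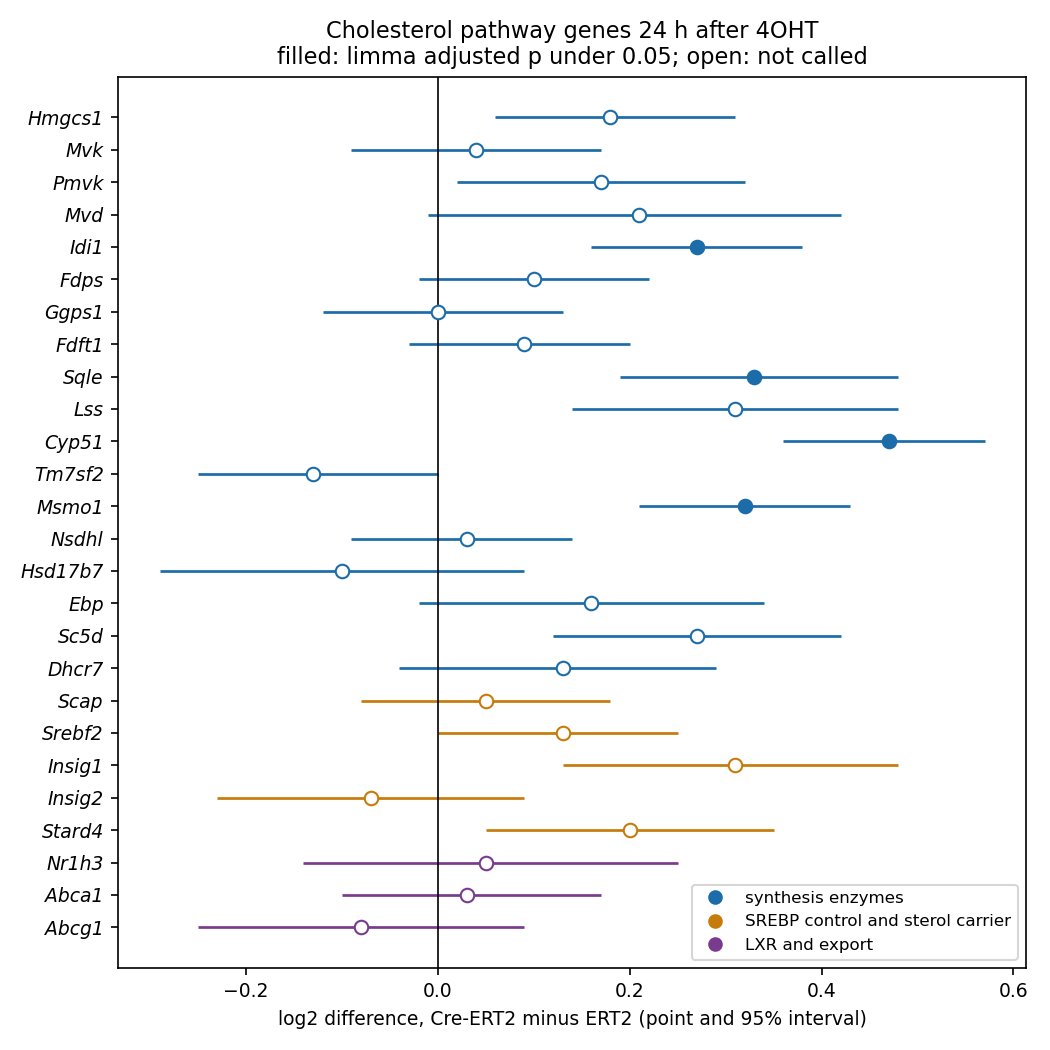
The x axis gives the log2 difference of Cre-ERT2 minus ERT2 with its 95% interval from limma, for each of the 26 measured members in pathway order. The 4 filled points (Idi1, Sqle, Cyp51 and Msmo1) passed an adjusted p under 0.05, and the widest rise is 0.47 for Cyp51.

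The first enzymes lead from acetyl-CoA units to isopentenyl diphosphate. Hmgcs1, the HMG-CoA synthase, read 3644, 3850 and 3529 in ERT2 and 4185, 4103 and 4215 in Cre-ERT2 samples. The groups did not overlap, but the log2 difference of 0.18 (SE 0.0516, limma adjusted p = 0.117) was not called. It was called with an intensity trend (0.0397) and with array weights (0.0247). Mvk, the mevalonate kinase, had means of 1229 ± 48.2 and 1263 ± 39.2 (SD, n = 3 each), and its groups overlapped. Pmvk, the next kinase, read 704, 682 and 627 in ERT2 and 779, 768 and 722 in Cre-ERT2 samples, a difference of 0.17 (95% interval 0.02 to 0.32) that missed the threshold (adjusted p = 0.223). Mvd, the decarboxylase that yields isopentenyl diphosphate, read 1436, 1321 and 1140 in ERT2 and 1487, 1552 and 1436 in Cre-ERT2 samples. Its difference of 0.21 had the widest error of the enzymes (SE 0.0909, limma adjusted p = 0.327), and the highest control and the lowest Cre-ERT2 array both round to 1436.

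Idi1, the isomerase that makes the allylic partner for chain building, rose. It read 4634, 4736 and 4805 in ERT2 and 5857, 5592 and 5675 in Cre-ERT2 samples, 121% of the control mean. Here the lowest Cre-ERT2 array stood clear of the highest control. The log2 difference was 0.27 (SE 0.0462, limma adjusted p = 0.0195), and a second probe set of the gene gave 0.25 (adjusted p = 0.0306). The call ended when control array 1 or any single Cre-ERT2 array was dropped (adjusted p = 0.0699 to 0.0944).

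The enzymes around farnesyl diphosphate, where the isoprenoid and sterol branches part, were not called. Fdps, which makes farnesyl diphosphate, read 4713, 5030 and 4673 in ERT2 and 5081, 5234 and 5095 in Cre-ERT2 samples, with a difference of 0.10 (95% interval -0.02 to 0.22). Ggps1, which extends it to geranylgeranyl diphosphate for protein anchors, had means of 2079 ± 99.3 and 2081 ± 17.3 (SD, n = 3 each) and a difference of 0.00 (95% interval -0.12 to 0.13). Fdft1, the squalene synthase that commits the chain to sterols, read 4933, 4972 and 4745 against 5336, 5091 and 5133, a difference of 0.09 (95% interval -0.03 to 0.20), with 0.10 from its second probe set.

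From squalene on, 3 of 10 enzymes rose and the median difference was 0.21, beside 1 of 8 and 0.13 for the measured enzymes before it. All Cre-ERT2 arrays were above all controls in 6 of 10 enzymes from squalene on and in 6 of 8 before it, and the difference was positive in 8 of 10 and 8 of 8. Over all 19938 genes, 4.38% rose, 17.5% had all Cre-ERT2 arrays above all controls, and 11822 had a positive difference. The stretches were not tested against each other. Sqle, the squalene epoxidase and an oxygen-dependent control point of the pathway, read 4402, 4345 and 3936 in ERT2 and 5222, 5432 and 5299 in Cre-ERT2 samples. All Cre-ERT2 samples exceeded all controls, and ERT2 replicate 3 was the lowest control. The difference was 0.33 (SE 0.0594, limma adjusted p = 0.0241). Dropping control array 1 or any single Cre-ERT2 array ended this call (adjusted p = 0.0558 to 0.104).

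Lss, which folds epoxysqualene into lanosterol, read 1840, 1889 and 1617 in ERT2 and 2165, 2262 and 2193 in Cre-ERT2 samples, 124% of the control mean. The groups were apart, and the difference of 0.31 (SE 0.0701) lay close to the threshold (limma adjusted p = 0.0563). It passed under 6 of 17 alternatives, among them the brighter probe sets alone (0.0259) and a pseudocount of 16 (0.047).

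Cyp51, the demethylase that takes a methyl group from lanosterol, rose most. It read 2619, 2604 and 2632 in ERT2 and 3626, 3566 and 3655 in Cre-ERT2 samples, 138% of the control mean. Both groups were tight, with SDs of 13.7 and 45.3. The log2 difference was 0.47 (SE 0.0428, 95% interval 0.36 to 0.57, limma adjusted p = 0.00139), larger than that of 97.9% of all genes. It was the 1 member called under all 17 alternatives, with adjusted p-values from 0.000178 to 0.015.

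Tm7sf2, a reductase that acts on the product of Cyp51, was the 1 member with all Cre-ERT2 arrays below all controls. It read 325, 323 and 315 in ERT2 and 291, 310 and 283 in Cre-ERT2 samples, and the difference of -0.13 (95% interval -0.25 to 0.00) was not called (limma adjusted p = 0.299). The following enzymes remove methyl groups from carbon 4 of the sterol. Msmo1, the oxidase of that set, rose. It read 4135, 4317 and 4175 in ERT2 and 5289, 5186 and 5300 in Cre-ERT2 samples, 125% of the control mean. Msmo1 thus had a log2 difference of 0.32 (SE 0.0451, limma adjusted p = 0.00865), and its call ended in 1 of 17 alternatives, without Cre-ERT2 replicate 3 (0.0585).

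Its partners in the same reaction cycle were not called. Nsdhl, the decarboxylating dehydrogenase, read 2493, 2498 and 2347 in ERT2 and 2474, 2467 and 2534 in Cre-ERT2 samples. Hsd17b7, the ketoreductase, read 2531, 2911 and 2413 against 2424, 2507 and 2385, with 1 control well above the others. Both overlapped between groups. The 95% intervals were -0.09 to 0.14 for Nsdhl and -0.29 to 0.09 for Hsd17b7, beside 0.21 to 0.43 for Msmo1, and the genes were not tested against each other.

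The last enzymes reshape the ring double bonds. Ebp, the sterol isomerase, read 2210, 2329 and 1945 in ERT2 and 2411, 2450 and 2355 in Cre-ERT2 samples, with a difference of 0.16 (SE 0.0748, limma adjusted p = 0.366). Sc5d, the desaturase that follows, read 2448, 2625 and 2326 against 2956, 3084 and 2864. The Sc5d groups stood apart, and the difference of 0.27 (SE 0.0626) narrowly missed the threshold (adjusted p = 0.0632). It passed under 6 of 17 alternatives. Dhcr7, the reductase that ends the pathway, read 1483, 1554 and 1382 against 1600, 1711 and 1522, and its groups overlapped at 1 Cre-ERT2 array. In all, 14 of 18 enzymes were not called, and 5 of them had overlapping groups. Beside these counts, limma called 4.38% of all genes higher and 3.72% lower. All Cre-ERT2 arrays lay above all controls in 17.5% of all genes and below in 10.8%.

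**Figure D3:**
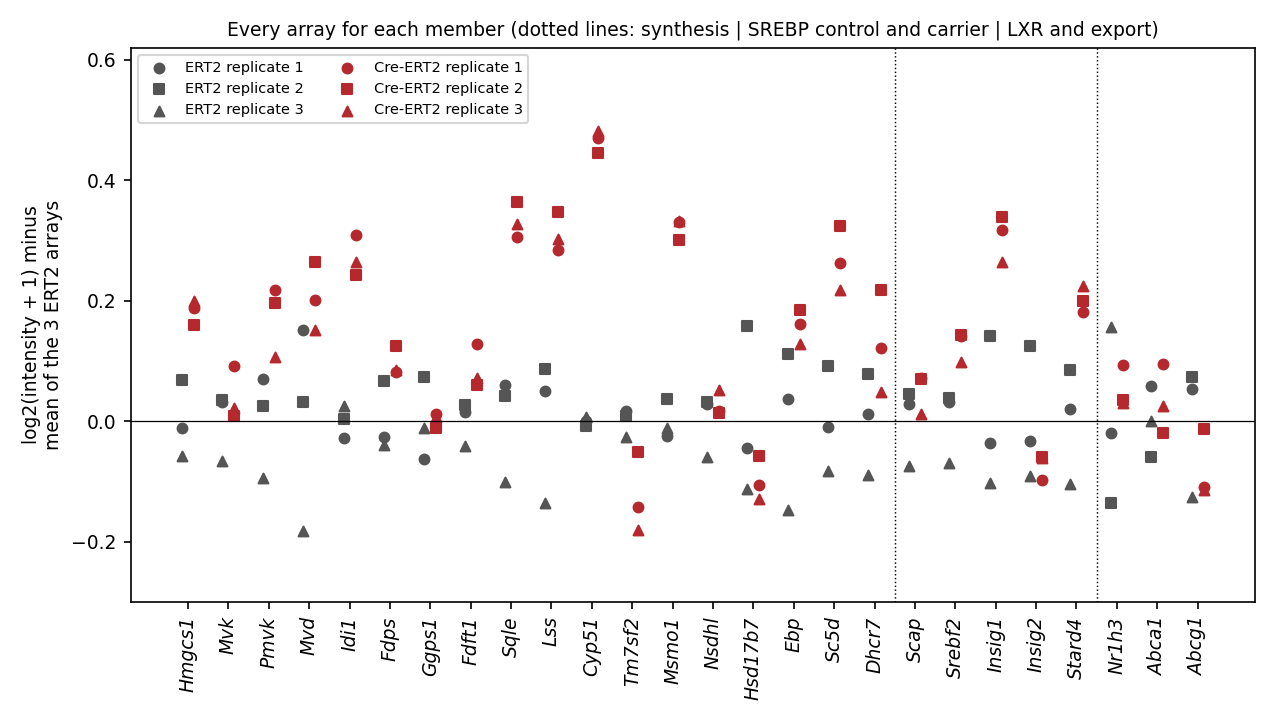
The y axis gives log2(intensity + 1) of each array minus the mean of the 3 ERT2 arrays, for every member, with 1 symbol shape per replicate number. For Cyp51, Msmo1, Sqle and Idi1 the Cre-ERT2 points lie above all ERT2 points, and ERT2 replicate 3 is the lowest control in 20 of 26 members.

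None of the 5 control and carrier genes passed the limma test, and 3 (Insig1, Srebf2 and Stard4, all higher) had an unadjusted p under 0.05. Limma called 4.38% of all genes higher and 3.72% lower, so 0 of 5 lies near these shares. At an unadjusted p under 0.05, 12.2% of all genes were higher and 7.93% lower. Insig1, a target of SREBP2 that restrains it in turn, read 2165, 2449 and 2067 in ERT2 and 2767, 2810 and 2666 in Cre-ERT2 samples, 123% of the control mean. The groups were apart. The difference of 0.31 (SE 0.0731, 95% interval 0.13 to 0.48) had a limma adjusted p of 0.0686 and passed under 6 of 17 alternatives, among them the fit without ERT2 replicate 2 (0.38, adjusted p = 0.0189). Insig2, the relative that SREBP2 does not induce, read 1379, 1540 and 1326 against 1320, 1354 and 1353. Its difference was -0.07 (95% interval -0.23 to 0.09), and its groups overlapped. The intervals of the paralogues do not overlap, but their difference itself was not tested.

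Srebf2, the gene of SREBP2, read 3543, 3561 and 3305 in ERT2 and 3824, 3830 and 3714 in Cre-ERT2 samples, a difference of 0.13 (SE 0.0512, limma adjusted p = 0.274). Scap, the escort, had means of 4253 ± 188 and 4404 ± 104 (SD, n = 3 each), and its groups overlapped. Stard4, which carries sterol between membranes and is an SREBP2 target, read 2027, 2120 and 1858 against 2266, 2296 and 2335. All Stard4 values of the Cre-ERT2 group exceeded the controls, with a difference of 0.20 (SE 0.0614, adjusted p = 0.143), which passed with array weights alone (0.0361).

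The export side gave 0 genes of 3 called by limma and 0 at an unadjusted p under 0.05, with overlapping groups in each. Of all genes, limma called 4.38% higher and 3.72% lower, or 12.2% and 7.93% at an unadjusted p under 0.05. All Cre-ERT2 arrays lay above all controls in 17.5% of genes and below in 10.8%. At these shares a count of 0 among 3 genes is common. Abcg1, the transporter that hands sterol to lipoproteins, read 2349, 2380 and 2073 in ERT2 and 2097, 2244 and 2091 in Cre-ERT2 samples, a difference of -0.08 (SE 0.0701, limma adjusted p = 0.691). Its 95% interval ran from -0.25 to 0.09. Abca1, the exporter that loads apolipoproteins, had means of 127 ± 5.23 and 130 ± 5.27 (SD, n = 3 each). Nr1h3, which encodes LXR alpha, read 218, 201 and 246 against 236, 226 and 226. Both lie below the median of all probe sets, where an array responds weakly to a change in RNA. Their 95% intervals were -0.10 to 0.17 and -0.14 to 0.25. No test of synthesis against export as groups was made. The median of the synthesis enzymes lay between 0.10 and 0.20 over 17 alternatives, and that of the 3 export genes between -0.08 and 0.06, where the lowest value came from Abcg1 alone among the brighter probe sets.

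**Figure D4:**
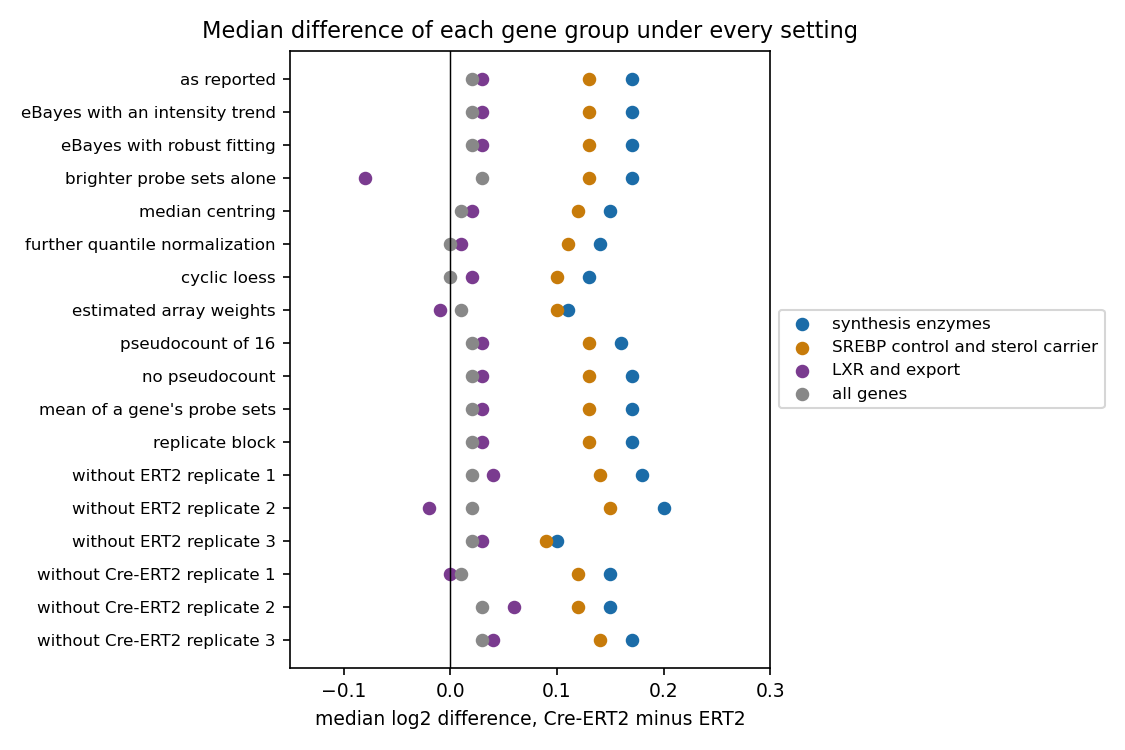
Each row is a setting of the fit and the x axis gives the median log2 difference of Cre-ERT2 minus ERT2, with 1 point each for 18 synthesis enzymes, 5 control and carrier genes, 3 LXR and export genes, and all genes. With the brighter probe sets alone, all genes are the 10479 left. The synthesis median lies above that of all genes in every setting drawn, from 0.10 to 0.20, and the export point at -0.08 rests on Abcg1 alone.

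Other genes of sterol handling were read from lists chosen by function. Over all genes 4.38% rose and 3.72% fell, and at an unadjusted p under 0.05 the shares were 12.2% and 7.93%. Of 6 measured genes of SREBP processing and sterol-regulated degradation 0 passed in either direction (at an unadjusted p under 0.05, Erlin1 alone, with 0.20). Erlin1, an endoplasmic reticulum protein of that machinery, read 1410, 1472 and 1448 in ERT2 and 1695, 1655 and 1630 in Cre-ERT2 samples (limma adjusted p = 0.0592). Of 12 genes of the isoprenoid branch 0 passed in either direction, with a median difference of 0.05 and 2 genes at an unadjusted p under 0.05, both higher. Coq2, an enzyme of ubiquinone synthesis, read 2727, 2755 and 2523 against 3077, 2992 and 3142 and Pggt1b, a subunit of a geranylgeranyl transferase, 1868, 2145 and 1821 against 2190, 2391 and 2464. Their adjusted p-values were 0.102 and 0.135.

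Among 16 genes of uptake, transport and esterification 2 rose and 1 fell (12.5% and 6.25%, beside 4.38% and 3.72% of all genes). Gramd1b, which moves cholesterol from the plasma membrane to the endoplasmic reticulum, read 561, 589 and 529 in ERT2 and 828, 855 and 804 in Cre-ERT2 samples. All Cre-ERT2 samples were well above the controls. Its difference of 0.57 (SE 0.0582, limma adjusted p = 0.00226) exceeded that of any member and was called under all 17 alternatives. Its relative Gramd1a, of the same family, fell, reading 1616, 1489 and 1474 against 1306, 1280 and 1253. Gramd1a had an adjusted p of 0.0496, and 11 of 17 alternatives ended its call (0.0505 to 0.198). Nceh1, a cholesteryl ester hydrolase, rose, reading 1642, 1633 and 1481 against 1868, 1945 and 1940, and 8 of 17 alternatives ended that call (0.0606 to 0.176). The sterol-binding receptor gene Tmem97, a target of SREBP2, read 7866, 7847 and 7127 against 9343, 8930 and 8869, without passing (adjusted p = 0.0652), and its second probe set gave 0.22 against 0.25. Uncalled genes with an unadjusted p under 0.05 lay in both directions. Tmem97 and Lbr (log2 difference 0.12) were higher, and Npc2 (-0.20) and Lipa (-0.15) were lower.

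Among 14 measured LXR partners, ligand makers and other targets 1 rose and 2 fell (7.14% and 14.3%, beside 4.38% and 3.72% of all genes). Scd1, a desaturase gene that SREBP1 and LXR both induce, fell, reading 9698, 9644 and 9904 in ERT2 and 266, 317 and 300 in Cre-ERT2 samples (log2 difference -5.05, limma adjusted p = 4.93e-06). Srebf1, which encodes SREBP1, read 1194, 1171 and 1023 against 1179, 1187 and 1147, with overlapping groups. Mylip, the LXR-induced ligase that marks lipoprotein receptors for degradation, fell, reading 1433, 1503 and 1212 against 869, 983 and 962 (adjusted p = 0.0207). Pltp, the phospholipid transfer protein and an LXR target too, rose, reading 289, 299 and 309 against 375, 356 and 365 (adjusted p = 0.0217). The called LXR targets thus lay in both directions. Calls of Mylip ended in 4 of 17 alternatives and those of Pltp in 5, all but 1 of them fits that left out an array. The partner receptor Rxra read 458, 526 and 410 against 381, 360 and 372, which was not called (adjusted p = 0.13).

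**Figure D5:**
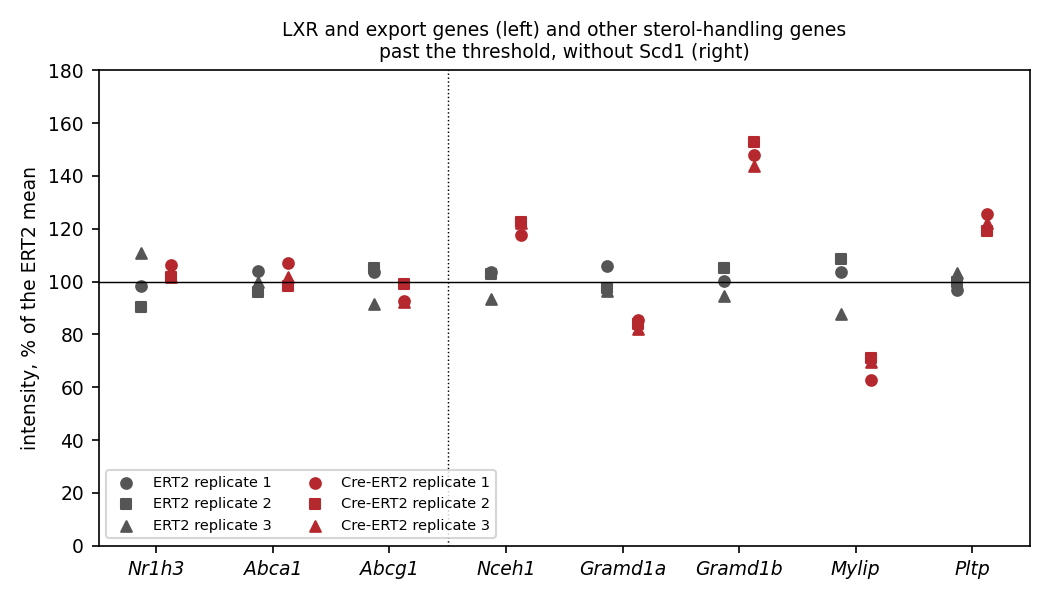
The y axis gives each array's intensity as a percentage of the mean of the 3 ERT2 arrays, for 3 LXR and export genes (left) and 5 other sterol-handling genes past the threshold (right). Scd1, also past the threshold, is not drawn because its fall to 3.02% of the ERT2 mean would need another scale. The export genes overlap between groups, Gramd1b, Nceh1 and Pltp lie higher in all Cre-ERT2 samples, and Gramd1a and Mylip lie lower.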

How the data were processed

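Each array has a single deposited intensity for every probe set, made by the authors with RMA, per the submitters' processing notes. RMA usually subtracts background, gives all arrays the same distribution and summarises probes, so a shift shared by all genes would not be seen. The values run from 6.27 to 26714 and so are linear. For its version, the sources used here give none. Log2(intensity + 1) of all 35556 probe sets was fitted with limma 3.58.1 (R 4.3.3; lmFit, eBayes), and p-values were adjusted by Benjamini-Hochberg over all of them, with a threshold of 0.05. The platform table names 1 gene for 21789 probe sets, several for 1621 and none for 12146. Where the probes of the second sets of Idi1 and Fdft1 lie is not given, and near-identical gene copies may share them. Promoter sequences are RefSeq's. The fit was tested on simulated data. Same-numbered samples deviated together with r of 0.205, 0.344 and -0.049 over probe sets, so the replicate numbers were not taken as pairs. The members, their grouping, the gene lists and the tests were chosen with earlier results of these data known. All members are named, and from the other lists those past the threshold. A few further genes were added after their values were seen (Erlin1, Coq2, Pggt1b, Tmem97, Lbr, Npc2, Lipa, Srebf1 and Rxra). Alternatives were an intensity trend, robust fitting, the brighter probe sets, median centring, quantile normalization, cyclic loess, array weights, pseudocounts of 16 and 0, averaging probe sets within a gene, the replicate block, and each array left out.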

Additional observations from a re-analysis of the deposited data

How the results depend on the processing

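The number of risen members was 8 with an intensity trend, 7 with the brighter probe sets alone, 7 after a further quantile normalization, 7 after cyclic loess and 9 with estimated array weights, against 4 as reported. The shares of all fitted genes that rose were 5.32%, 10.3%, 4.94%, 4.71% and 8.01% in the same order, against 4.38%. The 10.3% is of the 10479 genes left among the brighter probe sets, the others of 19938. The replicate block, fitted although the numbers do not pair the samples, gave 2 (3.36% of all genes), ending the calls of Idi1 (limma adjusted p = 0.0648) and Sqle (0.0552), and leaving out 1 array gave from 1 to 6 (2.32% to 4.62% of all genes). Under robust fitting, median centring, no pseudocount and averaging of probe sets within genes it was 4, and with a pseudocount of 16 it was 5. The number of fallen members was 0 in all 17 alternatives. The members called only under an alternative were Hmgcs1, Lss, Sc5d, Insig1 and Stard4, each higher in Cre-ERT2. No called difference changed sign. The brighter probe sets alone left 24 members, without Nr1h3 and Abca1, whose weak signal over background limits what they can show. The causes of these changes were not tested.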
